A study of Mus musculus with 8 samples.

Results

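The comparison set the 4 libraries that the labels number replicate 2 against the 4 that they number replicate 1, within the same treatment groups. All 8 libraries of the series entered it, as 4 pairs, and the sign of every difference is replicate 2 minus replicate 1. Each library holds RNA of wild-type mouse embryonic stem cells (mESCs), cells able to form every tissue of the body. The study asks about linc1393, a long non-coding RNA, in pluripotency. The groups were cells treated with sh-linc1393, sd-linc1393 or dd-linc1393 and untreated cells, here called sh, sd, dd and control, with 1 library of each replicate number per group. No label spells out sd or dd, and linc1393 itself was not tied to a gene identifier and was not analysed here. Nothing in the labels says whether a replicate number marks a separate culture, preparation or sequencing run, so a p-value here sets the difference against the spread among these libraries alone, and that spread may be technical. Of 52338 genes with values, 14561 had a mean of at least 1 FPKM (fragments per kilobase of exon, scaled to a total per library) over the 8 libraries and were tested.

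Several kinds of RNA are described below. A messenger RNA is transcribed from a gene with introns, spliced and given a poly(A) tail, and a processed pseudogene is a DNA copy of such a spliced message set elsewhere in the genome, so that reads of message and copy can be hard to tell apart. Small nucleolar RNAs guide changes to ribosomal RNA bases; those of the box H/ACA kind guide pseudouridylation and those of the box C/D kind guide methylation, and most are cut from introns of host genes. In mESCs the FGF and ERK signalling pathway pushes cells out of the pluripotent state, and its targets include its own inhibitors, such as the Sprouty proteins and dual-specificity phosphatases.

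Depth, counted as reads recovered from the FPKM steps, was 3658368 to 20387065 reads in replicate 2 and 6415130 to 20346942 reads in replicate 1, and the control library was the shallowest of each set. The 3-read floor of a transcript of 1 kb was at most 0.820 FPKM in replicate 2 and 0.468 FPKM in replicate 1, in both cases in the control library, and covers counting error only. All 10 markers of mESCs passed the filter, with a summed level of 6949 to 10052 FPKM in replicate 2 and 1432 to 1862 FPKM in replicate 1. Most of that gap was Dppa5a; the other 9 markers, summed apart after the values were seen, came to 1083 to 1740 FPKM in replicate 2 and 1058 to 1371 FPKM in replicate 1. Of the 10 markers of fibroblast feeder cells 2 passed, with sums of 28.8 to 45.3 FPKM in replicate 2 and 35.9 to 44.1 FPKM in replicate 1, and Col1a2, Col3a1, Dcn, Fbn1, Lum and Postn were below 1 FPKM in every library. The neural list summed to 50.2 to 68.6 against 27.6 to 48.4 FPKM (3 of 8 markers passed), the mesoderm list to 2.51 to 12.2 against 1.97 to 4.58 FPKM (1 of 6) and the trophoblast list to 22.6 to 33.3 against 11.04 to 13.5 FPKM (5 of 7), with replicate 2 before replicate 1 in each. The part of these marker levels in the results below was not tested. In such bulk samples, fewer cells of a type and less RNA per cell cannot be told apart.

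The replicate number separated more genes than not. By limma's moderated test on log2(FPKM + 1) with the treatment group as a block, 8920 of 14561 genes (61.3%) differed between replicate 2 and replicate 1 at an adjusted p under 0.05. Of these, 6787 (46.6%) were higher and 2133 (14.6%) were lower in replicate 2. The 4 replicate 2 libraries all lay above the 4 replicate 1 libraries for 6107 genes (41.9%), and all lay below them for 2068 genes (14.2%). The median difference over all genes tested was 0.73 on the log2 scale, and the median within a pair was 0.92 in sh, 0.51 in sd, 0.35 in dd and 0.96 in control. That offset depended on the scaling: it was 0.30 after median ratio scaling and 0.02 after quantile normalization, where 4015 genes were called higher and 4343 lower. List medians below are therefore also given less the median of all genes, written as "less all genes" where it stands in brackets. The replicate number held 66.4% of the sum of squares of a gene on the median, against 14.3% for the treatment group and 14.2% for the remainder.

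Differences were alike from pair to pair for most genes. Across the 14561 genes, Spearman's rho between the differences of 2 pairs lay between 0.719 (dd and control) and 0.872 (sh and sd), given as a description because genes are not independent. Of all genes tested, 7237 were positive and 2680 negative in all 4 pairs. The strongest differences were of unlike kinds in the 2 directions. Among called genes with a log2 difference of 3 or more, 846 were higher in replicate 2 and 225 were lower. Of the 846, 657 (77.7%) were processed pseudogenes and 149 (17.6%) protein-coding. Of the 225, 179 (79.6%) were protein-coding, 9 (4%) processed pseudogenes and 14 (6.22%) small nucleolar RNA genes. Among all genes tested, 24.4% were processed pseudogenes, 68.2% protein-coding and 0.907% small nucleolar RNA genes.

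**Figure D1:**
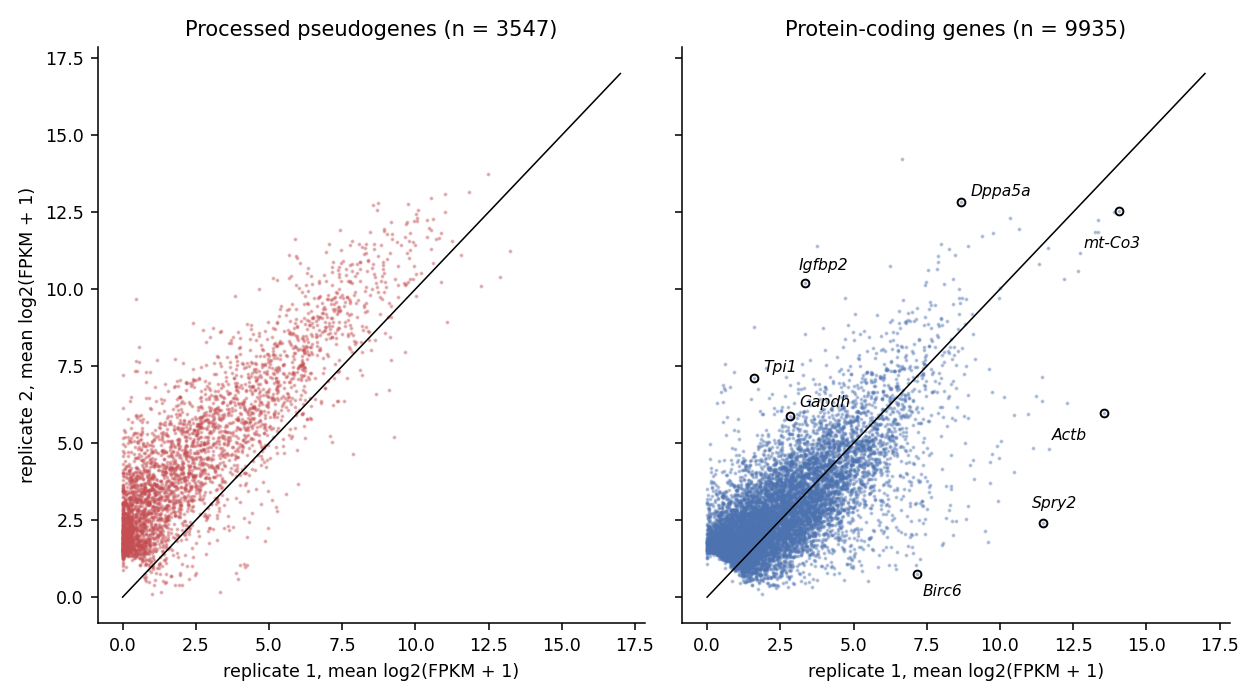
Mean log2(FPKM + 1) over the 4 replicate 2 libraries (vertical axis) against that over the 4 replicate 1 libraries (horizontal axis), 1 point per gene tested, for 3547 processed pseudogenes (left) and 9935 protein-coding genes (right), with the line of equal values. Most pseudogenes lie above the line (2978 called higher, 72 lower), while protein-coding genes spread to both sides (3476 higher, 1874 lower), with Spry2, Actb and Birc6 far below it and Igfbp2 and Tpi1 far above it.

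Leaving aside predicted genes with Gm names, the protein-coding gene with the largest gain was Igfbp2, which encodes a secreted binding protein of insulin-like growth factors and lies at chr1:72824503-72852474 (GRCm38). It measured 1295, 1084, 959 and 1454 FPKM in the sh, sd, dd and control libraries of replicate 2, against 8.87, 11.02, 8.19 and 8.36 FPKM in those of replicate 1. All 4 groups showed the gap, and the libraries within a set lay close together. The log2 difference was 6.88 ± 0.23 (SE; limma adjusted p = 8.8e-07). None of its sequence stretches was shared with another gene.

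Enzymes of glycolysis and their retrocopies were 5 of the 12 largest gains. Tpi1, triosephosphate isomerase, measured 169, 142, 95.3 and 160 FPKM in replicate 2 (sh, sd, dd and control), against 1.37, 3.55, 2.88 and 1.08 FPKM in replicate 1, a log2 difference of 5.51 ± 0.33. Aldoa, aldolase A, measured 589, 428, 279 and 487 FPKM in replicate 2, against 14.4, 22.6, 16.4 and 8.03 FPKM in replicate 1 (4.80 ± 0.32). For both, the dd library was the lowest of replicate 2 and still lay above all of replicate 1. The retrocopied aldolases Aldoart1 and Aldoart2 (6.19 and 4.87) and the retrocopied enolase Eno1b (5.21) were also among the 12 largest gains; 89.0% of Eno1b sequence stretches occur in other genes, so its value is uncertain. The other members of the 12 were the calcium-binding S100a13 (5.44) and S100a1 (5.01), the alpha tubulin Tuba3a (5.19, with 52.0% of its stretches in other genes), the endoplasmic reticulum protein gene Rcn3 (5.15), the ribosomal protein gene Rpl36 (4.99) and Pigyl (4.93), a gene of the glycosylphosphatidylinositol anchor pathway. Rcn3 measured 71.5, 50.03, 28.8 and 65.4 FPKM in replicate 2, against 0.127, 0.315, 0.729 and 0.817 FPKM in replicate 1, where it was below 1 FPKM throughout. S100a1 had 95.2, 105, 104 and 126 FPKM in replicate 2, against 2.10, 1.42, 1.80 and 4.94 FPKM in replicate 1, with no overlap and no shared sequence.

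The largest fall was that of Spry2, an inhibitor of receptor tyrosine kinase signalling that ERK itself induces. It measured 3.33, 3.27, 9.94 and 2.88 FPKM in the sh, sd, dd and control libraries of replicate 2, against 3918, 1750, 2187 and 4517 FPKM in those of replicate 1. Replicate 1 thus held it among its abundant messages and replicate 2 at a low level, in every group. The log2 difference was -9.08 ± 0.39 (SE; limma adjusted p = 1.6e-06). Lgr4, a receptor for R-spondins that strengthens Wnt signalling, measured 3.55, 2.56, 1.54 and 2.60 FPKM in replicate 2, against 922, 580, 602 and 1124 FPKM in replicate 1 (-7.80 ± 0.24). Actb, cytoplasmic beta actin, measured 55.3, 65.9, 55.3 and 76.6 FPKM in replicate 2, against 15668, 9645, 9006 and 15913 FPKM in replicate 1 (-7.57 ± 0.21), and shares 34.7% of its stretches with other genes. Birc6, a giant ubiquitin ligase of the inhibitor-of-apoptosis family, measured 0.803, 0.472, 0.520 and 0.965 FPKM in replicate 2, against 221, 87.9, 96.2 and 213 FPKM in replicate 1 (-6.41 ± 0.27). In Lgr4 and Birc6, as in Spry2, the sh and control libraries of replicate 1 stood above sd and dd.

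The other 8 of the 12 largest falls were the septin gene Sept10 (-7.35), the selenophosphate synthetase Sephs2 (-6.87), the heterochromatin protein gene Cbx3 (-6.82), the zinc finger gene Zfp985 (-6.40), the SMAD co-repressor Skil (-6.38), the Golgi protein gene Tmf1 (-6.32), the lipid phosphatase Mtmr2 (-6.32) and the ribosome assembly factor Rsl24d1 (-6.30). The order of libraries seen in Spry2 was common in this group. Of the 225 called genes lower by 3 or more, 192 had both the sh and the control library of replicate 1 above both sd and dd, and 62 had that order in replicate 2; over all genes tested the order held for 8.55% in replicate 1 and for 33.7% in replicate 2. The 225 genes were chosen by the difference itself, and they took 0.867%, 0.806%, 0.824% and 0.669% of reads in replicate 2 (sh, sd, dd and control), against 34.2%, 19.4%, 20.4% and 35.8% in replicate 1. The 846 genes higher by 3 or more, likewise chosen, took 17.9%, 18.04%, 12.2% and 15.5% of reads in replicate 2, against 0.820%, 1.10%, 1.17% and 0.719% in replicate 1.

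**Figure D2:**
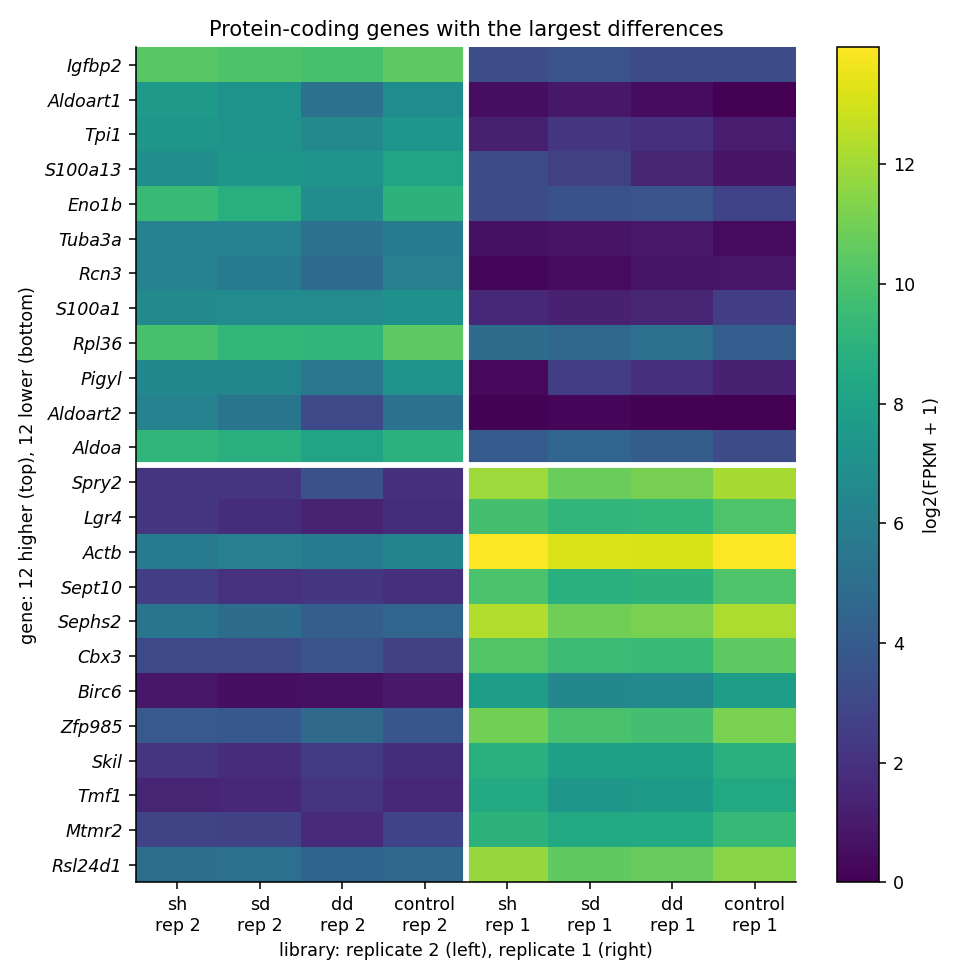
Level of the 12 protein-coding genes, predicted Gm genes aside, with the largest gain (top) and the 12 with the largest fall (bottom) in each library, as log2(FPKM + 1) by colour, with the replicate 2 libraries left of the line and the replicate 1 libraries right of it. No gene's replicate 2 libraries overlap its replicate 1 libraries, since the genes were chosen so, and among the lower genes sh and control of replicate 1 are brighter than sd and dd.

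Spry2 can be set beside other genes tied to the ERK pathway, most of them targets or feedback inhibitors. These 14 genes, Spry2 included, were picked after their values were seen, so their counts are a description only: 9 were lower, 2 were higher and 3 were not called (median -1.35), where 14.6% of all genes tested were lower. Dusp6, the phosphatase that inactivates ERK, measured 1.99, 1.66, 0.595 and 2.62 FPKM in replicate 2 (sh, sd, dd and control), against 120, 94.9, 89.0 and 137 FPKM in replicate 1 (-5.39 ± 0.24). Phlda1 measured 1.20, 1.06, 1.22 and 0.496 FPKM in replicate 2, against 78.6, 54.6, 46.2 and 50.6 FPKM in replicate 1 (-4.86 ± 0.26). Myc, the growth-promoting transcription factor, measured 0.342, 0.479, 0.289 and 2.11 FPKM in replicate 2, against 20.04, 13.7, 23.4 and 21.7 FPKM in replicate 1 (-3.60 ± 0.30), and the control library was the highest of replicate 2. No replicate 2 library of these genes reached any replicate 1 library. Spry1 (-1.21), Spry4 (-1.81), Spred1 (-1.74), Spred2 (-1.48) and the ETS factor Etv5 (-1.19) were lower by less. Going the other way, the early response gene Ier3 was higher (1.86), as was Fgf4 (0.87), the growth factor that drives ERK in these cells, whose call was lost after median ratio scaling (0.29, adjusted p = 0.313) and quantile normalization (0.11, adjusted p = 0.661). Dusp4 (-0.42), Etv4 (-0.50) and Egr1 (0.81) did not pass the test. The wider list of immediate early genes showed no common direction, with 4 higher and 6 lower of 16 tested and a median of -0.05 (-0.78 less all genes). Junb (-2.36) was lower and Fos (1.999) higher. Btg2, an antiproliferative gene, measured 11.4, 8.35, 8.05 and 6.88 FPKM in replicate 2, against 108, 72.2, 60.4 and 114 FPKM in replicate 1 (-3.18 ± 0.26).

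Glycolysis had the largest median gain of the functional lists. Of 18 genes tested, 17 were higher and 1 was lower, with a median of 2.76, which is 2.03 above the median of all genes and stayed positive after quantile normalization (2.02) and median ratio scaling (2.35). Ldhb, a lactate dehydrogenase subunit, measured 464, 463, 593 and 343 FPKM in replicate 2 (sh, sd, dd and control), against 25.2, 41.9, 30.7 and 15.7 FPKM in replicate 1 (4.04 ± 0.23). Eno1 (4.37), Ldha (3.32) and Gapdh (3.03) rose as well. Eno1 shares 77.25% of its stretches with other genes, so its value is uncertain. The lower gene was Hk2 (-0.74), a hexokinase, whose adjusted p of 0.0411 lay between 0.0503 and 0.138 without the control, sd or sh pair or without the filter. The list took 1.06%, 0.804%, 0.725% and 0.760% of reads in replicate 2, against 0.129%, 0.177%, 0.167% and 0.130% in replicate 1. An exact paired permutation test over the 4 pairs gave its smallest possible two-sided p of 0.125, adjusted to 0.188 over 24 such classes and lists.

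Ribosomal protein genes rose nearly as one. Of 79 cytosolic ribosomal protein genes tested, 75 were higher and 1 was lower (median 2.18, or 1.46 above all genes). Rps15 measured 1780, 1723, 1235 and 2289 FPKM in replicate 2 (sh, sd, dd and control), against 85.6, 64.2, 81.4 and 68.5 FPKM in replicate 1 (4.51 ± 0.23), and no library of one set reached the other. The list took 5.30%, 5.05%, 5.86% and 6.53% of reads in replicate 2, against 1.49%, 1.45%, 1.59% and 1.23% in replicate 1. Many of these genes share sequence with copies (median 43.6% of stretches), which limits single values. Among 35 translation factors, 19 (54.3%) were higher and 5 (14.3%) lower, close to the 46.6% and 14.6% of all genes (median 1.03, 0.30 less all genes, and 0.05 after quantile normalization). Eef2, the elongation factor that moves the ribosome along the message, measured 959, 648, 297 and 590 FPKM in replicate 2, against 58.6, 50.5, 60.7 and 48.4 FPKM in replicate 1 (3.38 ± 0.29). Nuclear genes of the respiratory chain had 48 of 66 (72.7%) higher and 3 lower (median 1.13, 0.41 less all genes), with Cox4i1, a subunit of cytochrome c oxidase, at 331, 353, 232 and 442 FPKM in replicate 2, against 30.1, 23.1, 29.8 and 20.01 FPKM in replicate 1 (3.65 ± 0.27). Proteasome subunits had 21 of 31 higher and 2 lower (median 0.83, 0.10 less all genes), led by Psmb7 and Psmd4 (3.09). Psmb7 measured 25.02, 20.6, 17.5 and 19.02 FPKM in replicate 2, against 1.404, 1.22, 2.23 and 0.775 FPKM in replicate 1 (3.18 ± 0.27).

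Splicing factors went the other way. Of 37 tested, 24 were lower and 5 were higher, with a median of -0.87, which is 1.59 below that of all genes. Hnrnpa1, an abundant RNA-binding protein of the nucleus, measured 100, 106, 99.6 and 68.7 FPKM in replicate 2 (sh, sd, dd and control), against 2912, 1769, 2062 and 3269 FPKM in replicate 1 (-4.70 ± 0.26). Srsf6, a serine- and arginine-rich splicing factor, measured 25.2, 30.9, 34.0 and 17.9 FPKM in replicate 2, against 105, 151, 134 and 102 FPKM in replicate 1 (-2.17 ± 0.22). Hnrnpa0 (-3.63) and Srsf1 (-2.34) also fell, and neither Hnrnpa0 nor Srsf6 shares any sequence stretch with another gene. Sf3a2, a subunit of the U2 particle, was among the higher ones (2.28). By symbol, 15 of 20 Hnrnp genes were lower and 2 were higher. The splicing list took 0.672%, 0.688%, 0.805% and 0.453% of reads in replicate 2, against 2.31%, 2.05%, 2.06% and 2.41% in replicate 1.

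Regulators of chromatin were lower more often than higher, and those of the actin skeleton were split. Of 34 chromatin remodellers and other large nuclear regulators, 13 were lower and 3 higher (median -0.47, or 1.20 below all genes). Crebbp, a histone acetyltransferase, measured 1.70, 1.16, 1.68 and 1.90 FPKM in replicate 2 (sh, sd, dd and control), against 11.6, 10.3, 10.3 and 9.57 FPKM in replicate 1 (-2.14 ± 0.25). Atrx (-2.22), Smarca5 (-2.43) and Arid1a (-2.08) also fell, while Smarca4, the ATPase of the BAF complex, rose (1.79). Of 29 actin genes and actin regulators, 10 were lower and 8 higher (median -0.10, -0.83 less all genes). Actr2, a subunit of the Arp2/3 complex that starts actin branches, measured 36.3, 38.7, 40.5 and 19.01 FPKM in replicate 2, against 1371, 718, 829 and 1509 FPKM in replicate 1 (-4.98 ± 0.33), whereas Arpc3, another subunit of that complex, was higher (3.03). Cfl1, which severs filaments, was lower (-3.05). Tubulins and microtubule genes had 11 of 16 higher and none called lower (median 0.88, 0.15 less all genes).

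Genes of cholesterol synthesis moved both ways. Of 20 genes, 8 were higher and 4 lower (40% and 20%), near the 46.6% and 14.6% of all genes tested. Their median was 0.41 (-0.32 less all genes, turning to -0.12 with quantile normalization and -0.07 with median ratio scaling). Insig1, which holds the sterol sensor in the endoplasmic reticulum, measured 31.4, 20.7, 10.6 and 16.8 FPKM in replicate 2 (sh, sd, dd and control), against 708, 306, 477 and 638 FPKM in replicate 1 (-4.70 ± 0.29). The 2 sets stayed apart in this gene. The desaturase Sc5d fell too (-3.77). The mevalonate enzymes Mvd (2.55) and Pmvk (2.47) were higher.

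Pluripotency genes showed no common direction, with 6 of 25 higher and 7 lower (median -0.20, or 0.92 below all genes). Dppa5a, an RNA-binding protein of pluripotent cells, measured 5866, 8584, 7616 and 7286 FPKM in replicate 2 (sh, sd, dd and control), against 373, 464, 557 and 292 FPKM in replicate 1 (4.15 ± 0.19). Its near copies Dppa5b and Dppa5c, annotated as unprocessed pseudogenes and sharing all of their stretches, had differences of 5.35 and 5.48, so reads among the 3 could not be assigned with certainty. Dppa2 measured 9.86, 12.6, 13.0 and 9.61 FPKM in replicate 2, against 64.9, 101, 67.8 and 73.8 FPKM in replicate 1 (-2.66 ± 0.23). Klf2, a transcription factor of naive cells, measured 150, 158, 182 and 141 FPKM in replicate 2, against 39.0, 52.8, 48.8 and 35.1 FPKM in replicate 1 (1.83 ± 0.21). Dppa3 (2.12) rose, and Klf5 (-1.86), Nr0b1 (-1.84) and the 5-methylcytosine oxidase Tet1 (-1.86) fell. Pou5f1 was called higher (1.25, adjusted p = 0.0417) but lost the call in several alternatives, with adjusted p up to 0.410. Sox2 (-0.44) and Nanog (-0.11) did not pass the test. In the sh pair Sox2 measured 19.7 FPKM in replicate 2 against 177 FPKM in replicate 1, while it was higher in replicate 2 in the other pairs. Pou5f1 was also lower in replicate 2 in the sh pair (14.7 against 24.2 FPKM) and higher in the others. All 8 primitive endoderm markers had negative differences and 7 were called lower (median -1.48, -2.21 less all genes). Dab2, an endocytic adaptor, measured 0.819, 0.337, 0.261 and 0.410 FPKM in replicate 2, against 10.5, 7.25, 8.62 and 6.88 FPKM in replicate 1 (-2.67 ± 0.26), and Gata6 (-1.76) and Sox17 (-1.58) were also lower. That list summed to 3.72 to 13.1 FPKM in replicate 2 and 33.3 to 47.8 FPKM in replicate 1.

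Among stress lists, targets of Atf4 moved one way and targets of p53 both ways. Of 18 Atf4 stress genes, 15 were higher and none was called lower (median 1.27, 0.55 less all genes). Nupr1, a small stress-induced nuclear protein, measured 15.4, 19.08, 20.4 and 14.9 FPKM in replicate 2 (sh, sd, dd and control), against 0.261, 0, 0.166 and 0 FPKM in replicate 1 (4.06 ± 0.26). Ddit3 (2.43) and the glycyl-tRNA synthetase Gars (2.24) rose with it. Of 20 p53 targets, 7 were higher, among them Gdf15 (2.70), and 9 were lower, among them Gtse1 (-1.82) and Btg2. Their median was -0.43 (-1.16 less all genes). Chaperones had 13 of 31 higher (41.9%) and 7 lower (22.6%), against 46.6% and 14.6% of all genes tested. Their median was 0.37 (-0.36 less all genes, but -0.50 with quantile normalization and -0.20 with median ratio scaling). Interferon response genes had 7 of 14 higher (50%) and 1 lower (7.14%), also near the shares of all genes. Their median was 0.74 (0.02 less all genes, but -0.13 after quantile normalization), with Bst2 (3.06) and the RNA sensor Ddx58 (-2.64) at the ends.

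Replication histone genes, whose messages mostly lack a poly(A) tail, had a positive median in every pair and the largest in the control pair. Of 46 tested, out of 63 with values, 31 were higher and 2 lower (median 1.75, 1.02 less all genes). The pair medians were 1.35 in sh, 1.33 in sd, 0.81 in dd and 2.96 in control. The median over the tested genes of the mean level was 6.14 FPKM in replicate 2 and 0.950 FPKM in replicate 1. Genes with a mean below 1 FPKM in replicate 1 passed the filter only through replicate 2 and could hardly come out lower. These counts and medians therefore describe the genes that passed. Hist1h2ap measured 15.3, 35.5, 30.9 and 103 FPKM in replicate 2 (sh, sd, dd and control), against 3.17, 2.75, 4.33 and 2.91 FPKM in replicate 1 (3.14 ± 0.41), and shares 93.4% of its stretches with other genes. Hist1h2bc went the other way, at 5.51, 4.67, 5.64 and 5.91 FPKM in replicate 2, against 33.2, 48.4, 34.4 and 26.2 FPKM in replicate 1 (-2.48 ± 0.27). The list's median less that of protein-coding genes of like exon length and GC content was 0.22. Of 10 polyadenylated histone variants, 3 were higher and 3 lower (median 0.12, -0.61 less all genes, turning negative at -0.40 and -0.43 under quantile normalization and median ratio scaling).

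The remaining lists were mixed or small. DNA replication had 15 of 39 higher (38.5%) and 7 lower (17.9%), near the 46.6% and 14.6% of all genes tested. Its median was 0.19 (-0.53 less all genes, but -0.32 with quantile normalization and -0.33 with median ratio scaling). Mitosis had 6 higher and 9 lower of 30 (median -0.08, -0.81 less all genes). Mcm7, part of the replicative helicase, measured 31.4, 27.4, 17.7 and 20.5 FPKM in replicate 2 (sh, sd, dd and control), against 5.11, 5.93, 4.94 and 3.24 FPKM in replicate 1 (2.11 ± 0.25). Mad2l1, of the spindle checkpoint, measured 9.60, 9.73, 15.1 and 7.13 FPKM in replicate 2, against 28.4, 35.8, 27.2 and 26.8 FPKM in replicate 1 (-1.46 ± 0.26). The sets did not overlap in either gene. KRAB zinc finger genes had 7 higher and 3 lower of 24 (median -0.12, -0.85 less all genes) and 2-cell-like genes 2 higher and 3 lower of 10 (median -0.26, -0.99 less all genes). Cell surface adhesion genes of long transcripts had 7 higher and 5 lower of 20 (median 0.34, -0.39 less all genes, but -0.26 with quantile normalization and -0.13 with median ratio scaling). Germline genes had 5 of 9 higher (55.6%, against 46.6% of all genes) and none called lower (median 0.99, 0.27 less all genes), led by Stra8 (2.90) and Sycp3 (2.57). Trophoblast markers had 2 of 5 higher (Krt18 at 3.09 and Krt8 at 0.98), feeder markers 1 of 2 (Pdgfrb at 1.51), and none was called of 3 neural markers, 1 mesoderm marker and 1 muscle gene tested. No liver or neuron gene passed the filter. A list of nuclear and cytoplasmic non-coding RNAs had 10 of 21 lower and 4 higher (median -0.76, -1.49 less all genes). In it Lncenc1 (-2.45) was lower and the small RNA host Snhg8 higher (2.49). The median over its tested genes of the mean level was 10.5 FPKM in replicate 2 and 10.6 FPKM in replicate 1. Platr10 measured 27.9, 16.7, 19.09 and 19.4 FPKM in replicate 2, against 187, 137, 139 and 223 FPKM in replicate 1 (-2.98 ± 0.23).

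**Figure D3:**
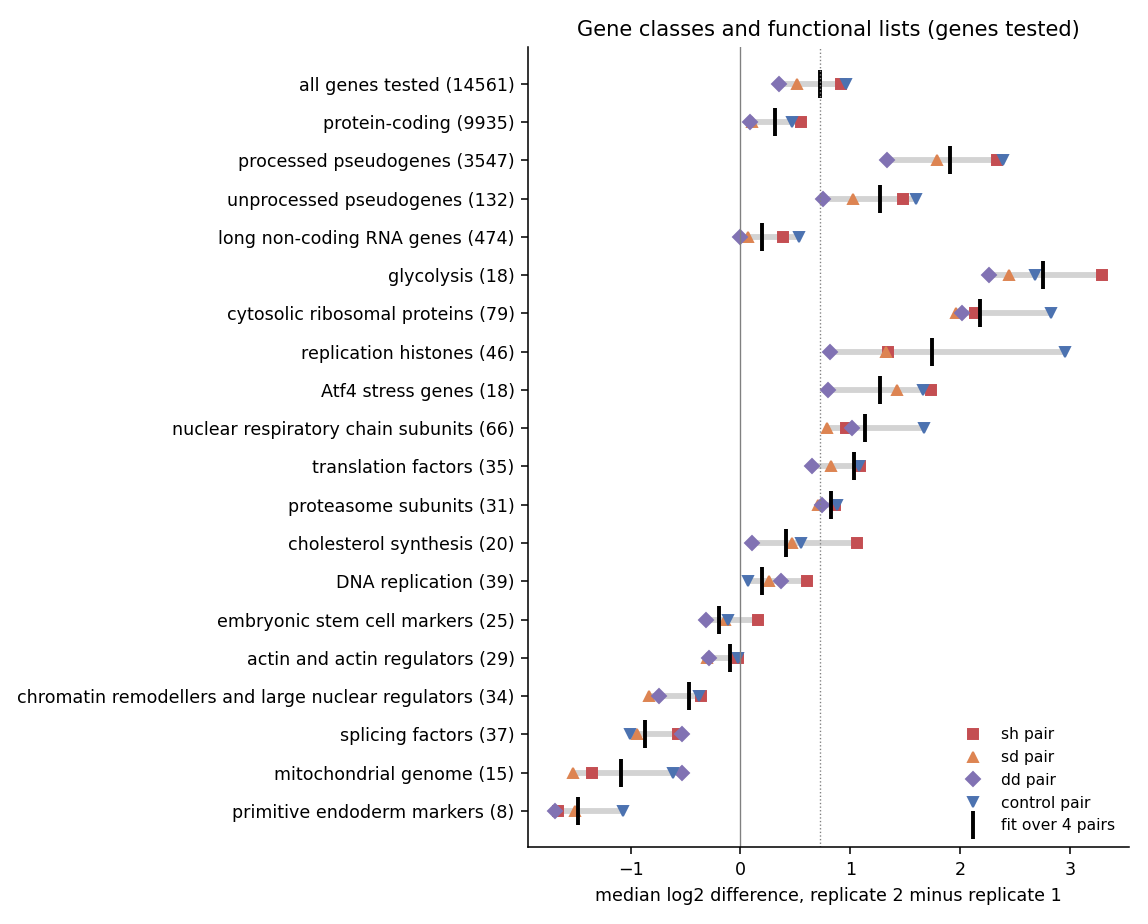
Median log2 difference, replicate 2 minus replicate 1, of gene classes and functional lists within each pair (coloured markers), their range (grey bar) and the value fitted over the 4 pairs (black mark); numbers in brackets are genes tested and the dotted line is the median of all genes (0.73). Glycolysis (2.76) and ribosomal protein genes (2.18) lie far right of that line and splicing factors (-0.87) and primitive endoderm markers (-1.48) far left of it; after quantile normalization the medians of protein-coding genes, long non-coding RNA genes, cholesterol synthesis and DNA replication are negative, as they are after median ratio scaling.

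Processed pseudogenes made up 43.9% of the genes called higher and 3.38% of those called lower, against 24.4% of all genes tested. Of 3547 processed pseudogenes tested (of 10216 with values), 2978 were higher and 72 lower, with a median of 1.91, which is 1.18 above all genes. The median over these genes of the mean level was 15.3 FPKM in replicate 2 and 2.44 FPKM in replicate 1. They took 27.9%, 33.6%, 34.4% and 28.4% of reads in replicate 2 (sh, sd, dd and control), against 7.48%, 8.81%, 9.16% and 7.25% in replicate 1. Protein-coding genes took 66.7%, 61.5%, 60.9% and 58.0% of reads in replicate 2, against 87.4%, 84.8%, 83.5% and 87.6% in replicate 1. For each of these shares the exact paired permutation p was 0.125, the smallest that 4 pairs allow, and 0.188 after adjustment over 24 classes and lists. Of the 486 processed pseudogenes with under 10% of stretches in other genes, 363 were higher and 12 were lower (median 1.59). Of the 1651 with 50% or more, 1458 were higher and 37 lower (median 2.08). The median over the 486 genes of the mean level was 5.10 FPKM in replicate 2 and 0.814 FPKM in replicate 1. Those with a mean below 1 FPKM in replicate 1 passed the filter only through replicate 2 and could hardly come out lower. Their counts are therefore a description of the genes that passed. Set against protein-coding genes of like exon length and GC content, the class median was 0.93.

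Among protein-coding genes themselves, 3476 of 9935 were higher and 1874 lower (median 0.31, or -0.38 with quantile normalization and -0.12 with median ratio scaling). Long non-coding RNA genes had 126 higher and 88 lower of 474 (median 0.19, or -0.58 and -0.16 under those scalings). The largest fall among them was that of Gm10522 (-6.40), at 0.615, 1.06, 0.590 and 0.705 FPKM in replicate 2 (sh, sd, dd and control), against 182, 107, 119 and 193 FPKM in replicate 1. Of 85 loci in the annotation class TEC, which awaits experimental evidence, 33 were lower and 10 higher (median -0.69). Unprocessed pseudogenes had 77 higher and 17 lower of 132 (median 1.27), yet took a smaller share of reads in replicate 2 than in replicate 1 in every pair, at 1.42% to 2.88% against 3.64% to 6.08%.

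The copies could be read against the genes they came from. Of the 1651 processed pseudogenes that share 50% or more of their stretches, 1024 had a tested protein-coding partner holding at least 50% of those stretches, with 557 partners in all; the comparison was added after the values were seen. Of the copies, 918 were higher and 15 lower (median 2.27), and of the partners 221 were higher and 120 lower (median 0.39). The copies held 63.4%, 67.9%, 66.5% and 65.1% of the reads of copies and partners together in replicate 2 (sh, sd, dd and control), against 31.3%, 36.2%, 37.4% and 30.6% in replicate 1. All 4 pairs moved the same way (exact paired permutation p = 0.125, the smallest possible). Of 210 copies of a partner called lower, 161 were called higher. That is a smaller share than the 918 of all 1024 copies, and than the 84.0% of all processed pseudogenes tested. Hmgb1, a chromatin protein, is the partner of 20 such copies and measured 12.5, 15.0, 14.1 and 8.43 FPKM in replicate 2, against 161, 96.3, 94.8 and 164 FPKM in replicate 1 (-3.25 ± 0.30), while 17 of its copies were higher. Copies held 78.8%, 76.3%, 63.9% and 76.0% of the reads of Hmgb1 and its copies in replicate 2, against 40.8%, 33.3%, 35.8% and 33.9% in replicate 1. Hnrnpa1 and Hnrnpa3 (-1.08) were lower while all 4 copies of the first and 14 of 15 copies of the second were higher. How the reads of near-identical sequences were assigned is not given in the sources used here, and its part in this result was not tested.

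One copy shows how close the sequences can be. The gene with the largest gain of all was Gm3788, a processed pseudogene at chr3:86672033-86672168 on the minus strand (GRCm38), inside an intron of Lrba, which is on the other strand. It measured 997, 1010, 486 and 949 FPKM in replicate 2 (sh, sd, dd and control), against 0, 0.361, 1.53 and 0 FPKM in replicate 1 (9.24 ± 0.39). In reads this was 1894, 2111, 1348 and 472 in replicate 2, against 0, 1, 4 and 0 in replicate 1, so the replicate 1 levels are at or near the floor. Its partner Tmsb10, which encodes the actin-binding peptide thymosin beta 10 at chr6:72957347-72958748, measured 268, 265, 225 and 289 FPKM in replicate 2, against 16.3, 14.8, 17.1 and 12.8 FPKM in replicate 1 (4.02 ± 0.23). In aligned form, 135 of the 136 bases of Gm3788 are identical to the coding stretch of Tmsb10 (transcript bases 291 to 425), with 0 substitutions and 1 inserted base. Both sequences are from GENCODE M21 on GRCm38, shown to let that single difference be seen, and the capital marks the inserted base.
Gm3788: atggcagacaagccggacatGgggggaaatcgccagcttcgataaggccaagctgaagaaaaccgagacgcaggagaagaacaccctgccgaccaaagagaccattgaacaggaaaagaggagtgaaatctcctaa
Tmsb10: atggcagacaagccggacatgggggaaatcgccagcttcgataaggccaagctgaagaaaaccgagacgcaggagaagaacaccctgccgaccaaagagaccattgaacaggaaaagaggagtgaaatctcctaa

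Small nucleolar and Cajal body RNAs were called in different directions by kind. They were sorted by letters on the transcript strand: ACA set exactly 3 bases before the 3′ end for the box H/ACA kind (226 of 1099 such genes with values, 20.6%), and TGATGA together with CTGA in the last 12 bases for the box C/D kind (111 genes, 10.1%), a sorting added after the values were seen. Of 73 box H/ACA genes tested, 24 were lower and 3 higher (median -0.63). Of 34 box C/D genes tested, 15 were higher and 2 lower (median 1.48), and of 41 genes with neither pattern 12 were higher and 7 lower (median 1.06). The median level of the box C/D genes, and of those with neither pattern, was 0 FPKM in each replicate 1 library. A gene at 0 in all of replicate 1 passed the filter through replicate 2 alone and could only come out higher. These counts and medians are therefore a description of the genes that passed, not support for a split by kind. The control pair stood apart: the box H/ACA median was -1.99 in sh, -1.68 in sd, -1.36 in dd and 1.79 in control, and -1.56 when fitted without the control pair; the box C/D median was 0.94, 1.11, 0.21 and 3.54 in the same pairs, and 0.64 without the control pair. The summed level of the box H/ACA genes was 270, 204, 228 and 3452 FPKM in replicate 2 (sh, sd, dd and control), against 5255, 3441, 1837 and 3525 FPKM in replicate 1. That of the box C/D genes was 159, 188, 159 and 894 FPKM in replicate 2, against 159, 194, 165 and 65.9 FPKM in replicate 1. The genes with neither pattern, whose median was positive, summed to 218, 154, 151 and 2908 FPKM in replicate 2, against 4755, 3459, 1888 and 3634 FPKM in replicate 1, a sum that lay lower in replicate 2 as the box H/ACA sum did. Except in the control library, replicate 2 held far less RNA of the box H/ACA genes and of the genes with neither pattern. The box C/D sums of the sh, sd and dd libraries were alike in the 2 sets. They rested on 195 to 253 reads in replicate 2 and 191 to 338 reads in replicate 1. Depth limits single genes here, since 1 read on a small nucleolar RNA gene of the median length of 129 bases was worth 0.380 to 2.12 FPKM in replicate 2 and 0.381 to 1.21 FPKM in replicate 1.

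Genes of each kind are shown with the letters that sorted them in capitals, from GENCODE M21 on GRCm38, 5′ to 3′. The first 2 are of the box H/ACA kind and the last 2 of the box C/D kind. Snora41 lies at chr1:63179004-63179135, Scarna8 at chr4:86586453-86586583 in Haus6, Snord49a at chr11:62603450-62603521 and Snord83b at chr15:80078498-80078591.
Snora41: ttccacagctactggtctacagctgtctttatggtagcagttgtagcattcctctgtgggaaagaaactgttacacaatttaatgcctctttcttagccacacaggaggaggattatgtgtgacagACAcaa
Scarna8: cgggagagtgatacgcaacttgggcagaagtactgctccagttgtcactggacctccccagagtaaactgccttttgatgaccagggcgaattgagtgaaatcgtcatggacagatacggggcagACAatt
Snord49a: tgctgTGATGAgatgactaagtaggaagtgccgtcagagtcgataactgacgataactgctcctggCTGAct
Snord83b: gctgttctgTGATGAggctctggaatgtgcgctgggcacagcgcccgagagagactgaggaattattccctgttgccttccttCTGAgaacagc

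Snora41 measured 16.8, 3.45, 11.52 and 128 FPKM in replicate 2 (sh, sd, dd and control), against 491, 260, 152 and 399 FPKM in replicate 1 (-3.98 ± 0.56), and Scarna8 3.82, 0, 0 and 10.4 FPKM in replicate 2, against 109, 51.0, 32.3 and 48.8 FPKM in replicate 1 (-4.35 ± 0.51). In both the control library was the highest of replicate 2 and still below all of replicate 1. Snord49a measured 10.9, 5.42, 2.73 and 22.8 FPKM and Snord83b 8.38, 6.92, 4.17 and 11.6 FPKM in replicate 2, and both were at 0 in all 4 replicate 1 libraries. Both are short and replicate 1 lists no read of them, so no fold is given. In replicate 2 Snord49a had 11, 6, 4 and 6 reads and Snord83b 11, 10, 8 and 4 reads (sh, sd, dd and control). The replicate 2 levels of both thus rest on few reads. Snord7, also a C/D gene by name, measured 1.48, 5.37, 6.57 and 2.82 FPKM in replicate 2, against 24.0, 52.7, 31.7 and 33.7 FPKM in replicate 1 (-2.93 ± 0.28). Hosts did not always go with the RNA inside them: Snora20 was lower (-4.45) while its host Tcp1, a subunit of the cytosolic chaperonin, was higher (2.73). Other short RNAs were high in 1 library. Rn7s6, annotated as a miscellaneous RNA, measured 123, 18.1, 1.18 and 5062 FPKM in replicate 2, against 0 in all of replicate 1, and Rnu12, the U12 spliceosomal RNA, was also highest in control of replicate 2 and at 0 in replicate 1.

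The mitochondrial genome showed opposite movements of its products. Of its 13 messages, 8 were lower and 3 higher (median -1.397), both ribosomal RNAs were higher, and of 22 transfer RNAs 11 were higher and 6 lower. mt-Nd4, a subunit of complex I, measured 1242, 1173, 2189 and 1750 FPKM in replicate 2 (sh, sd, dd and control), against 4892, 7769, 8142 and 5538 FPKM in replicate 1 (-2.06 ± 0.20). mt-Rnr1, the small ribosomal RNA, measured 2544, 2262, 3603 and 4300 FPKM in replicate 2, against 641, 595, 652 and 654 FPKM in replicate 1 (2.27 ± 0.19), and mt-Rnr2 was higher by 2.37. The 2 sets did not overlap in either gene. Messages summed to 25489, 29472, 51267 and 38078 FPKM in replicate 2, against 67522, 97792, 112925 and 72212 FPKM in replicate 1. The transfer RNAs summed to 3075, 796, 3149 and 11006 FPKM in replicate 2, against 14878, 9746, 10138 and 9490 FPKM in replicate 1. The nuclear genome carries copies of mitochondrial sequence, so single values are uncertain. Of the stretches of mt-Nd4, 63.0% occur in annotated transcripts of other genes, and none of those of mt-Rnr1 do. Copies outside annotated transcripts were not searched, so the values of mt-Rnr1 may be affected too.

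More genes were read at all in replicate 2. A value above 0 was listed for 46560, 45189, 32639 and 40970 genes in replicate 2 (sh, sd, dd and control), against 18337, 19600, 19745 and 16152 genes in replicate 1, although replicate 2 was at most slightly deeper. The gap included classes that mESCs are not known to use. Vomeronasal receptor genes, which detect pheromones in the nose, had a value above 0 in 95.1%, 94.2%, 62.1% and 87.8% of cases in replicate 2, against 11.3%, 14.1%, 13.8% and 9.48% in replicate 1. Immune receptor segments had one in 66.7%, 59.4%, 17.2% and 44.4% of cases in replicate 2, against 0.285%, 0.712%, 0.285% and 0.570% in replicate 1. All 18 neuron and synapse genes were above 0 in every replicate 2 library, against 27.8%, 38.9%, 38.9% and 16.7% of them in replicate 1. Each of 18 classes examined for detection, protein-coding genes and pseudogenes among them, gave an exact paired permutation p of 0.125, the smallest possible and the same after adjustment. The levels were low, and the dd pair was the exception: at 0.1 FPKM or more, 3.67% of vomeronasal genes counted in dd of replicate 2 against 3.98% in dd of replicate 1, and 3 of 4 pairs rose (exact paired permutation p = 0.25). At that level 16.7% of the neuron and synapse genes counted in both dd libraries.

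**Figure D4:**
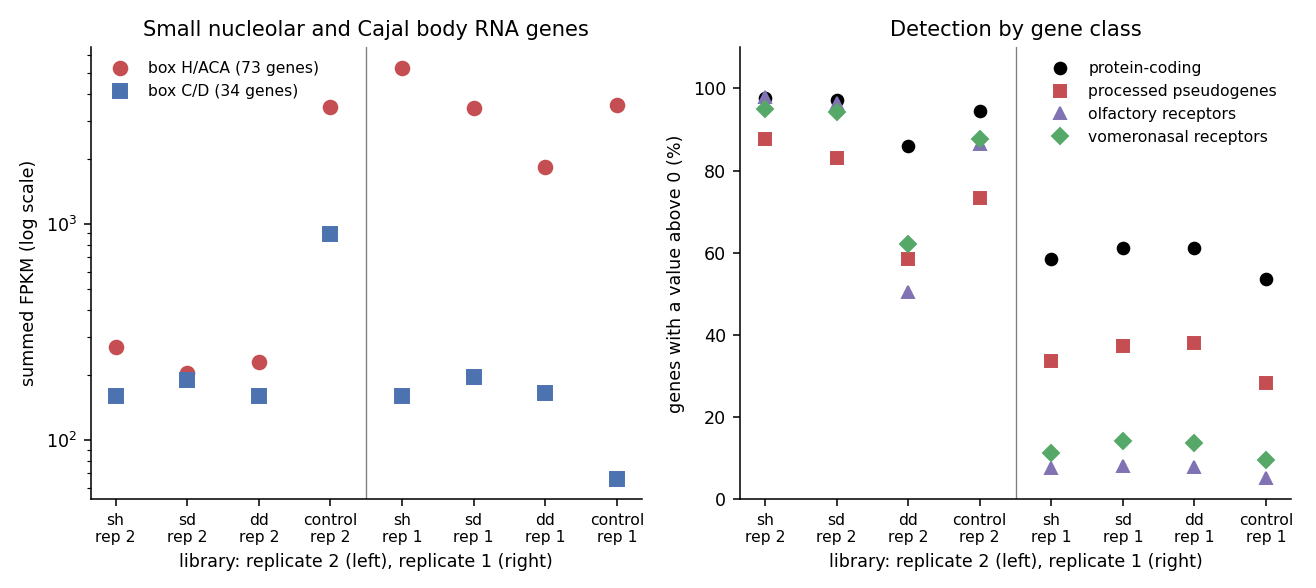
Summed FPKM of 73 box H/ACA and 34 box C/D genes per library on a log axis (left), and the percentage of genes of 4 classes with a value above 0 per library (right), with replicate 2 left of the line and replicate 1 right of it. The box H/ACA sum is 204 to 270 FPKM in 3 replicate 2 libraries but 3452 in control, against 1837 to 5255 in replicate 1, and detection is higher in every replicate 2 library, least so in dd.

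Transcript length and base composition separated the sets within protein-coding genes. The difference fell with the summed exon length of a gene, with Spearman's rho of -0.40 across 9935 genes (-0.39 to -0.32 in the single pairs), and rose with the GC content, with a rho of 0.45 (0.24 in the dd pair to 0.53 in the control pair); both are descriptions across genes. Genes with exons of 1 to 2 kb had a median difference of 1.10 (1267 genes, 776 higher and 105 lower), and those above 8 kb a median of -0.34 (1509 genes, 161 higher and 502 lower). Genes with a GC content above 60% had a median of 1.24 (408 genes, 273 higher and 14 lower), and those below 40% a median of -0.45 (663 genes, 78 higher and 245 lower). On a 3 by 3 grid of both properties, 1081 of 1585 short, GC-rich genes were higher and 75 lower (median 1.33), and 117 of 1538 long, GC-poor genes were higher and 582 lower (median -0.49). Short, GC-poor genes had a median of 0.20 and long, GC-rich genes one of 0.47. After quantile normalization the medians of the first and second of these corners were 0.63 and -1.17, so the order stayed while the level moved. A grid of 100 cells by length and GC accounted for 23.1% of the variance of the difference. Exon number (rho -0.14) and the share of stretches in other genes (rho 0.02) were weaker companions. The read-weighted median exon length of protein-coding reads was 3324, 3132, 3202 and 2911 bases in replicate 2 (sh, sd, dd and control), against 4174, 4174, 4070 and 4213 bases in replicate 1. Their read-weighted median GC content was 48.1%, 47.7%, 47.1% and 49.0% in replicate 2, against 45.7%, 45.1%, 44.9% and 45.4% in replicate 1.

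**Figure D5:**
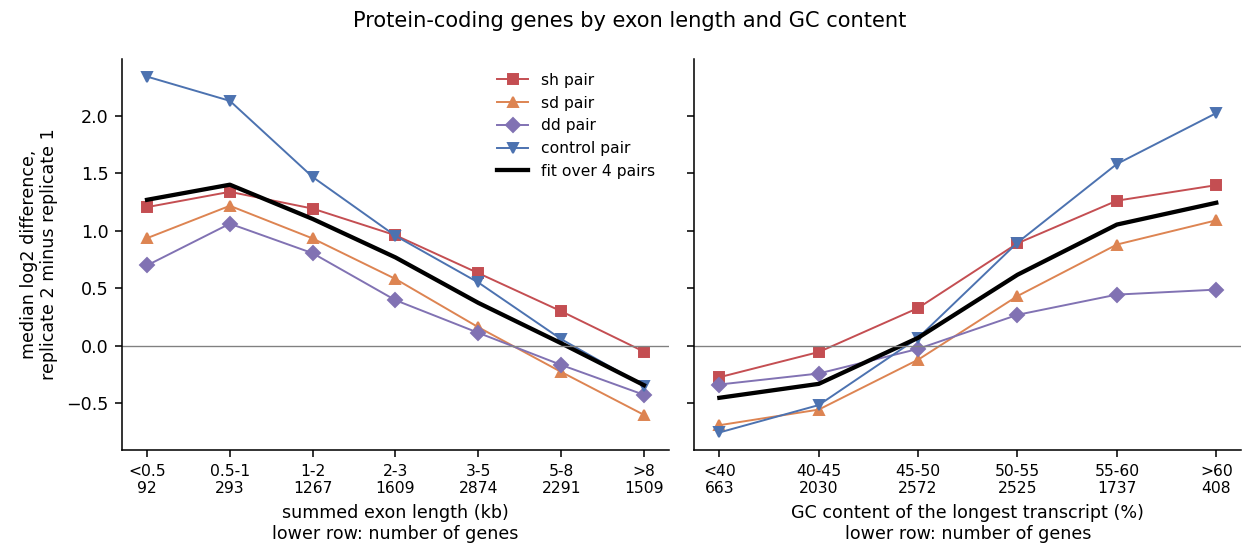
Median log2 difference, replicate 2 minus replicate 1, of protein-coding genes in bins of summed exon length in kb (left) and of GC content in % (right), within each pair (coloured) and fitted over the 4 pairs (black), with the number of genes under each bin. The median runs down to -0.34 above 8 kb and up to 1.24 above 60% GC; after quantile normalization the gradients stay but the medians of the bins from 3 kb and under 55% GC are negative.

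Lists were also set against genes of like length and GC content. Less the median of protein-coding genes of like length and GC content, the median was 2.37 for glycolysis, 1.51 for ribosomal protein genes, 0.39 for nuclear respiratory genes, -0.49 for splicing factors, -0.37 for chromatin regulators and -2.10 for primitive endoderm markers, and it was 0.93 for processed pseudogenes. These values kept the sign of the unadjusted medians. Of 43 class and list medians, 9 had the other sign after this adjustment. Among them were long non-coding RNA genes (-0.43), trophoblast markers (-0.30), cell surface adhesion genes (-0.19), polyadenylated histone variants (-0.40) and KRAB zinc finger genes (0.28). The highest genes also held unlike shares of each library. The 10 highest took 12.1%, 12.7%, 10.96% and 9.25% of the summed FPKM in replicate 2 (sh, sd, dd and control), against 21.2%, 23.9%, 27.8% and 22.8% in replicate 1 (exact paired permutation p = 0.125, or 0.25 adjusted over 4 such shares). In replicate 2 the highest protein-coding entry of the sh, sd and control libraries was Gm10800, a predicted gene sharing 41.1% of its stretches, at 51654, 45008, 3021 and 18594 FPKM in replicate 2, against 132, 44.9, 121 and 138 FPKM in replicate 1.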

How the data were processed

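RNA-seq gene levels of 8 mESC libraries were used. The deposited values are FPKM per gene and library, per the file headers; reads were processed with CASAVA 1.4 and HISAT2 on mm10, per the submitters' processing notes. Not given in the sources used here were the counting program, the annotation and whether strand was used. Of 58420 rows, 6082 held no value, and 52081 of the remaining 52338 matched GENCODE M21. Levels were taken as log2(FPKM + 1), which understates the change of low genes, and genes with a mean of at least 1 FPKM were tested with limma 3.58.1 in R 4.3.3 (replicate number plus treatment group, Benjamini-Hochberg adjusted p under 0.05), a fit tested on simulated data. Single values per library were compared by an exact paired permutation test in Python 3.11.15 with scipy 1.17.1, where the smallest two-sided p is 0.125 with 4 pairs.

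The low FPKM values were whole multiples of 1 read: within a tolerance of 0.02, between 98.3% and 98.9% of the values under 100 reads were whole. The recovered reads gave depths and read shares, and limma's voom on them called 6844 genes higher and 2308 lower. Shared sequence is the percentage of 31-base stretches of a gene's longest transcript, taken every 5 bases, found in annotated transcripts of another gene. The genes named are the 12 protein-coding genes with the largest difference in each direction among those whose sets do not overlap, up to 3 members per list with the smallest p, the 2 most changed called genes per other class, the 5 highest protein-coding genes per set, Actb and Gapdh. Genes outside that rule (the ERK feedback genes, Hmgb1, the small RNAs beyond the class leaders, Snora20 with Tcp1, and list members such as Cfl1, Arpc3, Eno1, Smarca4, Smarca5, Arid1a, Junb, Fos, Tet1, Nr0b1, Klf5, Dppa3, Srsf1, Sf3a2, Mvd, Pmvk, Hk2, Pou5f1, Sox2 and Nanog) were added once their values had been seen. The comparison, the 34 gene lists and their members were chosen with earlier results of these data known. Alternatives were other scalings (quantile normalization, median ratio), pseudocounts, filters, variance moderation, no treatment block, protein-coding genes only, and each pair left out; the comparison with genes of like length and GC content and the small RNA sums without the control pair were added after seeing the data. Some items that the naming rule selects are not reported here.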

Additional observations from a re-analysis of the deposited data

Results flagged for a closer look

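Most values that stood apart within a set of 4 libraries belonged to the control library of replicate 2, which was also the shallowest; a gap of this kind turns up by chance in about 1 of 20 sets. The control library of replicate 2 held the highest share of reads on microRNA genes (0.124%, others 0.0171% to 0.0260%), on small nucleolar RNA genes (0.0772%, others 0.00545% to 0.0118%), on small nuclear RNA genes (0.0505%, others 0.000677% to 0.00497%) and on replication histones (0.0615%, others 0.0130% to 0.0177%). Its box H/ACA genes summed to 3452 FPKM (others 204 to 270) and its box C/D genes to 894 FPKM (others 159 to 188). Among single genes it was highest for Snora41 (128 FPKM, others 3.45 to 16.8), Rn7s6 (5062 FPKM, others 1.18 to 123), Rnu12 (462 FPKM, others 3.90 to 13.7), Gm48274 (1745 FPKM, others 15.6 to 56.7), Mir6236 (8329 FPKM, others 55.03 to 491) and Myc (2.11 FPKM, others 0.289 to 0.479). Rn7s6, Rnu12, Gm48274 and Mir6236 were picked for being high in this library. Snora41 and Myc were added once their values had been seen. The rate of 1 of 20 sets therefore does not apply to these single genes.

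The dd library of replicate 2 was highest for Spry2 (9.94 FPKM, others 2.88 to 3.33) and lowest for Gm3788 (486 FPKM, others 949 to 1010). In replicate 1, the control library had the lowest share of reads on microRNA genes (0.00725%, others 0.0106% to 0.0113%), the sh library the highest sum of mitochondrial transfer RNAs (14878 FPKM, others 9490 to 10138) and the sd library the highest level of Mad2l1 (35.8 FPKM, others 26.8 to 28.4).

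Pairs also went opposite ways for whole classes, and with 1 pair per group the difference between pairs was not tested. The median difference of mitochondrial transfer RNA genes was 4.19 in the control pair and -0.51 in the sd pair, 4.69 apart. That of small Cajal body RNA genes was 2.85 in control and -0.25 in dd (3.10 apart), that of small nucleolar RNA genes 2.43 in control and -0.53 in sh (2.96 apart), and that of box H/ACA genes 1.79 in control and -1.99 in sh (3.78 apart).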

How the results depend on the processing

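The count of genes called, 8920, was 5368 with a mean of at least 5 FPKM (7503 tested) and 5818 with protein-coding genes only (9935 tested), both with fewer genes tested. Genes called higher, 6787, were 3724 and 3769 under those filters and 4015 after quantile normalization. Genes called lower, 2133, were 3480 after median ratio scaling and 4343 after quantile normalization; the cause was not tested. Of the calls, 6166 were shared with quantile normalization, 18 of them in the other direction. The rank correlation with exon length, -0.40, was -0.53 over all genes tested, -0.46 with a mean of at least 5 FPKM and -0.24 without a filter. The difference in the share of the 10 highest genes, -12.7 percentage points, was -7.46 with protein-coding genes only. Leaving out 1 pair gave 6982 to 8785 genes called, 5106 to 6842 higher and 1485 to 1943 lower, a rank correlation with exon length of -0.41 to -0.38 and with GC content of 0.40 to 0.49, and differences of 70.7 to 86.5 points for olfactory genes above 0, 33.3 to 38.7 for protein-coding, 37.1 to 48.3 for processed pseudogenes, -13.9 to -11.3 for the 10 highest genes, 22.1 to 23.8 for pseudogene reads and 30.98 to 32.8 for reads on copies. Of 167 called genes that were named or examined, 155 kept their call in every setting run for them, out of 14, and 12 lost it in at least 1; none changed direction. Of 43 class and list medians, 9 changed sign after quantile normalization, 8 after median ratio scaling and 3 without the control pair. With the replicate number as the block, no paired analysis was possible because the replicate number is itself the comparison. The libraries were paired by treatment group instead, as a block in the limma fit and as 4 pairs in the exact paired permutation tests. The shallow control libraries limit short and low genes.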

Other observations

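Some short RNAs were listed at 0 throughout replicate 1 and were high in 1 replicate 2 library. The genes below were picked for their high level in the control library of replicate 2. Rnu12, the U12 RNA of the minor spliceosome, measured 13.7, 6.46, 3.90 and 462 FPKM in replicate 2 (sh, sd, dd and control) and was at 0 in replicate 1, and Gm48274 measured 56.7, 29.1, 15.6 and 1745 FPKM in replicate 2 and was at 0 in replicate 1. Mir6236 measured 491, 272, 55.03 and 8329 FPKM in replicate 2, against 26.0, 5.59, 20.4 and 8.87 FPKM in replicate 1.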
